A study of Mus musculus with 26 samples.

Results

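The imprinted locus of Igf2 and H19 was read in peak lists of cohesin, accessible chromatin and an enhancer RNA in C2C12 cells, mouse myoblasts that fuse to myotubes when serum is withdrawn. Its members were chosen by position: all peaks of the 16 lists that touched a window of 180 kb on chromosome 7 (149700000 to 149880000, mouse build mm9). There were 112 such peaks among 762764 in all, 43 of SMC3, 59 of ATAC and 10 of ChIRP. In mm9 H19 lies near 149761400 to 149764100 and Igf2 near 149836700 to 149852700, 72.6 kb apart. Both genes are read toward lower coordinates, so the start of H19 is its upper end, and "below" means downstream of H19.

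The study profiled 8 groups of 2 libraries each. ChIP-seq of SMC3 was done in myoblasts (medium with 20% serum), in myotubes (2% horse serum) and in myotubes transfected with siDRR. ATAC-seq was done in myotubes transfected with Control siRNA, siDRR or siSmc3, and ChIRP-seq for the DRR RNA in myotubes with DRR probe pool1 or pool2. The labels give no transfection for the myoblast, the plain myotube and the ChIRP libraries, and all groups are the same cell line. The 10 input and LacZ probe samples were not analysed here, and neither was the level of any RNA. The labelled stage was therefore not checked against marker genes.

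Igf2, a growth factor that promotes muscle differentiation, is expressed from the paternal allele, and H19, a long noncoding RNA, from the maternal allele. The imprinting control region just upstream of H19 binds CTCF on the unmethylated maternal allele, where it insulates Igf2 from enhancers shared by both genes downstream of H19; on the paternal allele it is methylated. Cohesin is a ring, with SMC3 as a core subunit, that extrudes chromatin loops and halts at CTCF. DRR is an enhancer upstream of Myod1, a master regulator of muscle, and is transcribed into the RNA that ChIRP probes and siDRR target. By the gene order of RefSeq (GRCm38.p6), Tnnt3, Mrpl23 and Nctc1 precede H19, and Igf2os and Ins2 follow Igf2. No annotation of mm9 was used, so peaks are placed by distance from H19 and Igf2 only.

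H19 RNA is also the precursor of miR-675, whose 2 mature forms are shown as RefSeq gives them (GRCm38.p6), with the seed, bases 2 to 8, in capitals.
mmu-miR-675-5p: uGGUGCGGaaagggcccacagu
mmu-miR-675-3p: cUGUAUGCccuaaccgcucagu

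RefSeq (GRCm38.p6) has 4 promoter windows of Igf2, each with 250 bases before and 50 after a start. The windows farthest upstream and farthest downstream are shown because accessible peaks inside Igf2 were few and low in rank, and capitals mark the GC box GGGCGG on either strand. The first lies at chr7:142666767-142667066 and the second at chr7:142657447-142657746, both on the minus strand; these positions do not compare with those of the mm9 peaks.
Igf2 upstream promoter: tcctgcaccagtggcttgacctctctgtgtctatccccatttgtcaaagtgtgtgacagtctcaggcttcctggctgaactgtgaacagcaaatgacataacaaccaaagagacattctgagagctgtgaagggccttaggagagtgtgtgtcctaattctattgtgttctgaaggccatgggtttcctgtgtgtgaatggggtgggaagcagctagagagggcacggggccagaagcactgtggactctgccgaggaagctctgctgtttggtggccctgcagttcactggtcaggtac
Igf2 downstream promoter: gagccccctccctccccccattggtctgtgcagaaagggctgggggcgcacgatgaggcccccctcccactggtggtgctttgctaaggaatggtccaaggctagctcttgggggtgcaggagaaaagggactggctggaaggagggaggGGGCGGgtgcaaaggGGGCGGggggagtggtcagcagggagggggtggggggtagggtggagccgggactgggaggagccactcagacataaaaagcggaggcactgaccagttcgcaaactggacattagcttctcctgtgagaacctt

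The downstream promoter held 2 GC boxes and was 63.3% G and C, and the upstream one held none and was 52.3% G and C. The windows between them, in order from upstream, were 49.7% and 64.7% G and C and held 0 and 1 GC boxes. Over all 32851 promoter windows 35.7% held this motif, and the median content of G and C was 52.7%. The motif CAGCTG, an E box of the kind bound by MYOD, was in none of the 4 Igf2 windows and in 16.3% of all. A match is a match of letters, and none of these windows was placed against a peak.

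The number of SMC3 peaks in the window was above the genome-wide median in each list. The 2 myoblast lists had 8 each, the myotube lists 7 and 8, and the siDRR lists 4 and 8. The median stretch of 180 kb across the genome held 1 and 1, 0 and 1, and 0 and 1 peaks in the same lists. As many peaks as in the window were held by 4.07% and 5.74% of stretches in the myoblast lists, 0.596% and 3.69% in the myotube lists, and 1.85% and 2.13% in the siDRR lists. For ATAC the window held 12 and 12 peaks in control, 6 and 12 with siDRR, and 9 and 8 with siSmc3. The median stretch held 3 and 5, 4 and 5, and 4 and 6 peaks in the same lists, so the ATAC counts were above the median too. In these lists 5.63% to 43.0% of stretches held as many, and the lowest of these shares is below that of myoblast replicate 2. The siDRR list with 4 SMC3 peaks is also by far the shortest, with 8384 peaks against 15056 to 33154 in the others, and read depths are unknown. ATAC lists held 58137 to 103055 peaks.

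**Figure D1:**
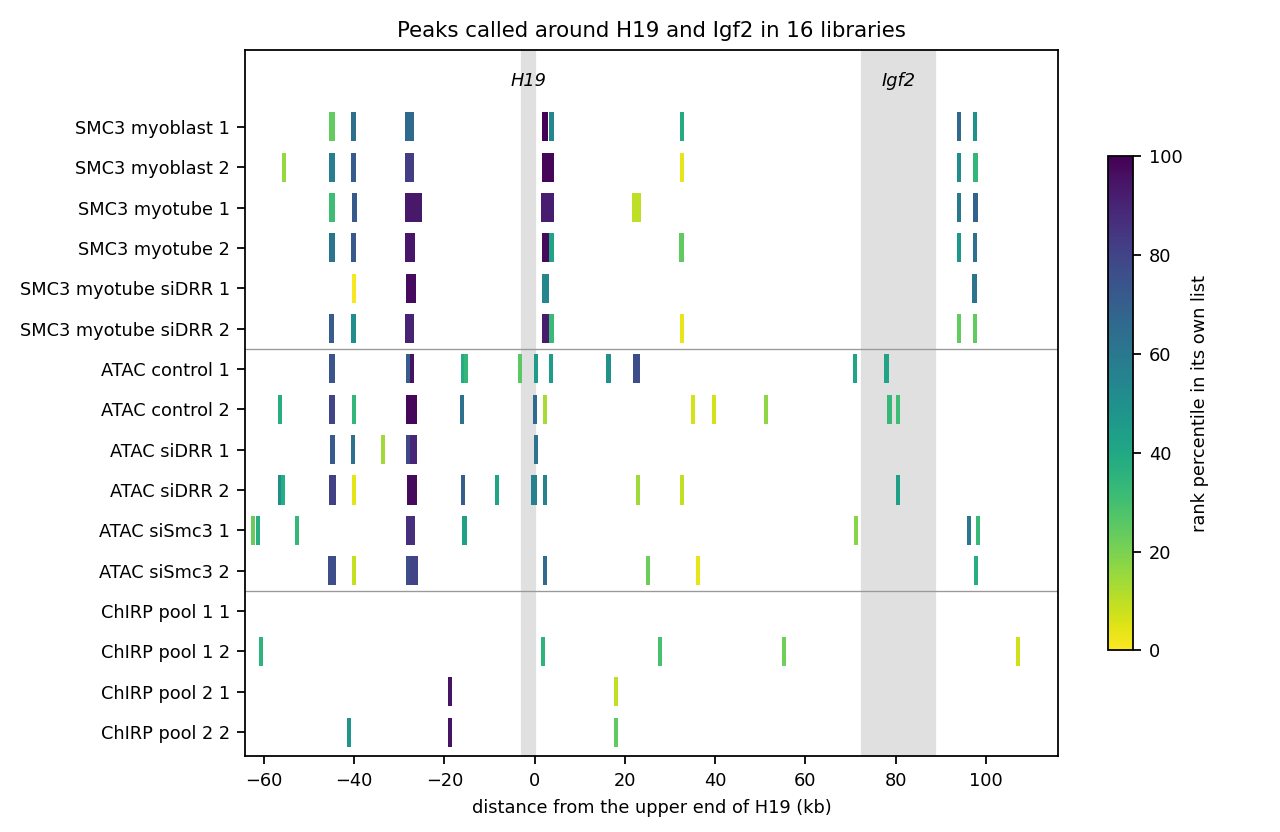
Peaks of the 16 libraries (rows, 1 and 2 are replicates) by distance from the upper end of H19 in kb; colour gives the rank percentile of each peak in its own list, peaks narrower than 0.9 kb are drawn at 0.9 kb, and grey bands are H19 and Igf2. SMC3 peaks recur at the same places in most lists, with none inside either gene, and the ATAC rows share few positions.

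Cohesin marked 9 regions, and most were found in most lists. Of these, 4 were called in all 6 SMC3 libraries, 2 in 5, 1 in 4 and 2 in a single library. Genome-wide, 7068 of 43783 SMC3 regions (16.1%) were called in all 6. They lay on the downstream side of H19 (4), between the genes (3) and beyond Igf2 (2), and no SMC3 peak fell inside H19 or Igf2. Each is given below by rank percentile, where the peak falls when the peaks of 1 library are ordered by score, with 100 for the top. The 2 regions of a single library lay at 149708037 to 149708982 (myoblast replicate 2, percentile 15.8) and at 149785648 to 149787584 (myotube replicate 1, 9.86).

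The site at 149765569 to 149768418 began 1.47 kb upstream of the start of H19, where the imprinting control region is known to lie. Its rank percentiles were 99.3 and 98.5 in the myoblast lists, 92.4 and 97.3 in the myotube lists, and 53.8 and 92.9 in the siDRR lists. In rank numbers it was 207 of 30955 and 508 of 33154 in the first group, 1151 of 15056 and 717 of 26765 in the second, and 3870 of 8384 and 1644 of 23196 in the third. In myoblasts it stood above every other SMC3 site of the locus, and siDRR replicate 1 was the one library that placed it near the middle of its list. In bulk libraries a site held in fewer cells, on 1 allele only, or less strongly in each cell cannot be told apart.

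The shape of this cohesin site also differed between lists. In 3 of the 6 it was split into a stronger peak on the H19 side and a weaker one on the Igf2 side, with gaps of 132, 83 and 89 bp. The weaker part stood at percentiles of 53.9 in myoblast replicate 1, 41.7 in myotube replicate 2 and 32.4 in siDRR replicate 2. Myoblast replicate 2 and myotube replicate 1 had 1 peak over both parts, of 2687 and 2850 bp. The list of siDRR replicate 1 held the H19 side alone, as a peak of 1509 bp. The 3 split lists include 1 library of each group.

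Downstream of H19, the side on which its enhancers lie, the strongest cohesin site was at 149735299 to 149739121, centred 26.9 kb below the start of H19. It stood at 66.3 and 82.2 in the myoblast lists, 93.4 and 94.5 in the myotube lists, and 96.9 and 90.4 in the siDRR lists. Both myotube values and both siDRR values lay above both myoblast values. In myotube replicate 1 and siDRR replicate 1 it outranked the control-region site, and in the other 4 lists it did not. Whether it is one of the known enhancers was not tested.

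A site at 149723448 to 149724632, centred 40.1 kb below the start of H19, stood at 63.8 and 71.4 in myoblasts and 72.1 and 72.4 in myotubes. With siDRR it stood at 0.829 and 51.0; in replicate 1 its score was 50.34 where the list begins at 50. Its neighbour at 149718426 to 149719888 was called in 5 libraries, at 23.9 and 58.0, 30.9 and 61.5, and 70.5 in siDRR replicate 2. Replicates of that neighbour differed more than the groups did.

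Between the genes a weak site at 149796252 to 149797105 had percentiles of 38.8 and 3.56 in myoblasts, 24.4 in myotube replicate 2 and 3.51 in siDRR replicate 2. Beyond Igf2, 4.90 and 8.45 kb above its upper end, lay a pair of sites. The nearer one, at 149857601 to 149858661, stood at 66.5 and 51.6 in the myoblast lists, 59.7 and 47.5 in the myotube lists, and 24.1 in siDRR replicate 2. The farther one, at 149861147 to 149862256, stood at 49.1 and 34.1 in the myoblast lists, 68.8 and 63.3 in the myotube lists, and 62.0 and 24.2 with siDRR. Of the pair, the farther site was the one whose myoblast and myotube values did not overlap.

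**Figure D2:**
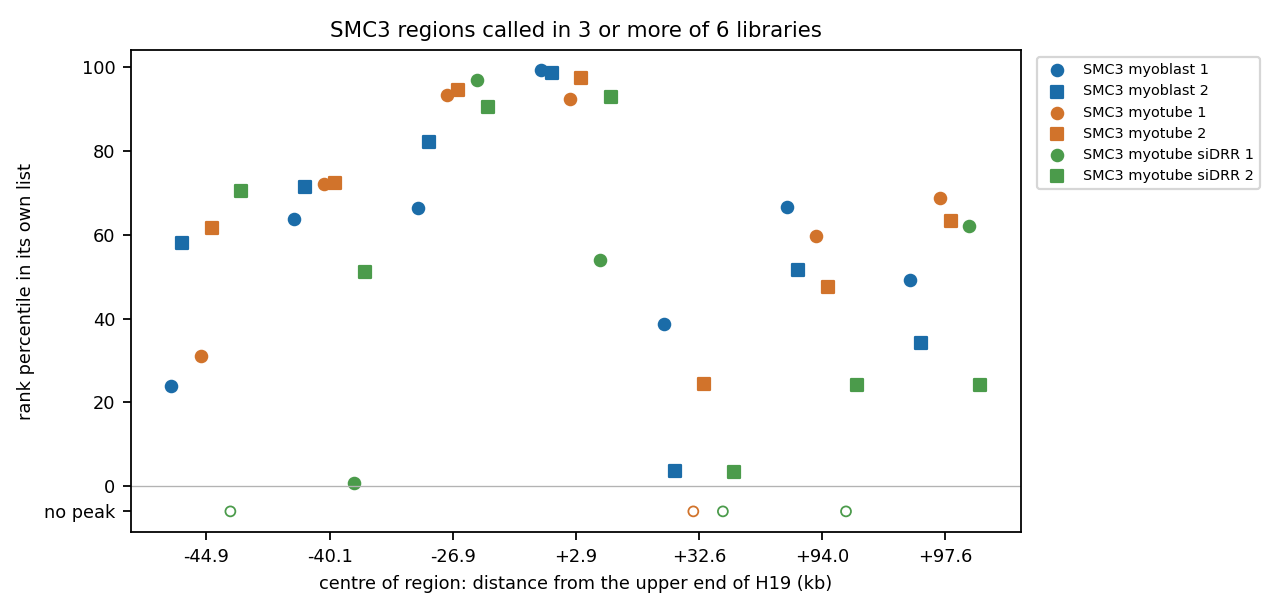
Rank percentile of the best SMC3 peak in its own list (vertical axis) at the 7 regions called in 3 or more libraries, by the distance of their centre from the upper end of H19 in kb; circles are replicate 1, squares replicate 2, and open symbols a list with no peak. The site at 26.9 kb below H19 is lower in both myoblast lists, at 66.3 and 82.2, than in the other 4, at 90.4 or above.

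On differentiation no cohesin region of the locus was lost, called in both myoblast libraries and neither myotube library, and none was gained in the opposite sense. Genome-wide 12.8% of 42567 regions were lost and 0.789% gained. Myoblast lists had 8 ± 0 peaks in the window while those of myotubes had 7.5 ± 0.707 (SD, n = 2 per group). The exact permutation test over libraries, two-sided, gave p = 1, and it cannot go below 0.333 with 2 libraries against 2. The myotube minus myoblast count turned positive, to 2, when lists were cut to the same 15056 peaks, and to 0.132 per 1000 listed peaks.

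Ranks shifted more than calls. Of the 6 regions called in all 4 libraries, 3 stood higher in both myotube lists than in both myoblast lists and 1 lower, while genome-wide 8.67% stood higher and 38.3% lower. The site at 26.9 kb below H19 differed by 19.7 points (mean percentile 74.2 in myoblasts and 93.9 in myotubes). The farther site beyond Igf2 differed by 24.5 points (41.6 and 66.0), and the site at 40.1 kb by 4.65. The control-region site was lower in myotubes by a difference of -4.06 points (98.9 and 94.8). Each of these 4 gave p = 0.333 in the exact permutation test, the smallest possible. Any site whose 2 groups do not overlap gives this value, so it only restates the selection. Without replicate 1 the difference at 26.9 kb was 12.3 points, that at 40.1 kb 0.993 and that at the control region -1.15; without replicate 2 they were 27.1, 8.31 and -6.97.

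Across the 13017 regions of all 4 libraries the median difference was -10.0 points, and 5% to 95% of them lay between -40.5 and 15.1. A difference as high as at 26.9 kb below H19 was found at 3.19% of them, and as high as at the farther site beyond Igf2 at 1.87%. One as high as at 40.1 kb was found at 15.2%. At the control-region site the difference was less negative than the median, and 64.2% of regions had one as low. The myotube lists are shorter than the myoblast lists, and at the same rank number a shorter list gives a lower percentile. The 3 higher sites of the locus were picked for standing higher in both myotube lists, so their sign against the negative median follows from that choice. With lists cut to 15056 peaks the farther site was in both myotube lists and neither myoblast list, so it counted as gained. Its myoblast peaks ranked 15766 in replicate 1, just past the cut, and 21865 in replicate 2. The call thus depended on the cut, and no genome-wide share of gains is given for the cut lists.

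With siDRR, again no cohesin region of the locus was lost or gained, against 2.91% and 0.130% of 30797 regions. The labels give no transfection for the plain myotubes, so siDRR and transfection itself cannot be told apart in the SMC3 comparison. The lists had 7.5 ± 0.707 peaks in myotubes and 6 ± 2.83 with siDRR (SD, n = 2 each; p = 1, two-sided exact permutation test). The siDRR minus myotube difference of -1.5 peaks became 0.0291 per 1000 listed peaks. Without replicate 2, the comparison of the first libraries alone had 3 lost regions, and without replicate 1 it had 0. With a single list per group, any myotube region missing from the siDRR list counts as lost. No genome-wide share is given for this setting.

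Of 4 regions called in all 4 libraries, 2 stood lower in both siDRR lists and none higher, while genome-wide 20.4% of 7142 stood lower and 5.67% higher. The site at 40.1 kb below H19 differed by -46.3 points (72.3 in myotubes and 25.9 with siDRR), which 0.994% of all regions matched or passed. Without replicate 1, which includes the shortest list, the difference was -21.4 points, and without replicate 2 it was -71.3. The farther site beyond Igf2 differed by -22.9 points (66.0 and 43.1), and 18.2% of all regions differed by as much downward. This difference was -39.0 points without replicate 1 and -6.78 without replicate 2. Genome-wide differences for a single replicate number were not computed. Both sites gave p = 0.333 in the exact permutation test, as any site without overlap of the groups does. The control-region site differed by -21.5 points (94.8 and 73.4), but its groups overlapped (p = 0.667, exact permutation test), and 20.0% of all regions differed as much. The site at 26.9 kb below H19 stood at means of 93.9 and 93.7 (p = 1, exact permutation test). The genome-wide median was -6.49 points, and with lists of 8384 peaks neither of the 2 lower sites was in all 4 lists.

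**Figure D3:**
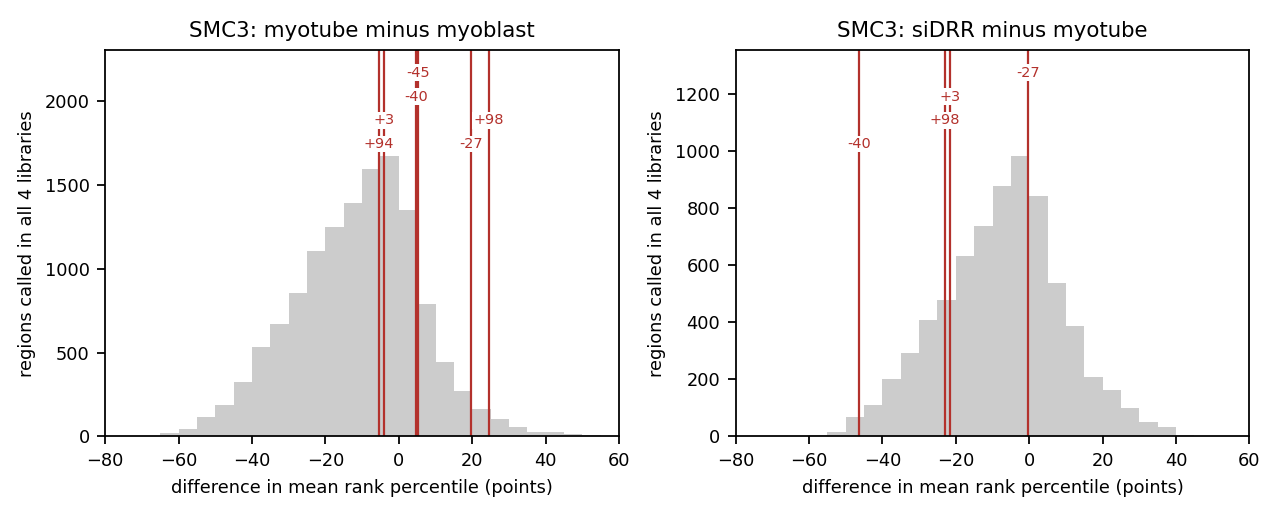
Difference in mean rank percentile (points) for SMC3 regions called in all 4 libraries of a comparison (grey bars, number of regions in steps of 5 points); red lines are the regions of the locus, labelled by distance of the centre from the upper end of H19 in kb. In myotubes against myoblasts the sites 26.9 kb below H19 and beyond Igf2 lie in the upper tail, at 19.7 and 24.5 points, and under siDRR the site at 40.1 kb lies in the lower tail, at -46.3 points.

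Cut to 8384 peaks each, the 6 SMC3 lists kept 1 and 2 regions of the locus in myoblasts, 5 and 3 in myotubes, and 4 and 3 with siDRR. At that length the control-region site alone was in all 6 lists. The site at 26.9 kb below H19 was in 5, missing from myoblast replicate 1.

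ATAC peaks of the 6 libraries formed 30 regions, of which 20 were called in 1 library (66.7%, against 60.1% of 231567 genome-wide). A single region was called in all 6 (1 of 30, against 9.74% genome-wide) and another in 5. Of the 9 SMC3 regions 8 overlapped an ATAC region of at least 1 library, and 3 overlapped peaks of both controls. Over all 43783 SMC3 regions these shares were 77.4% and 39.8%. Of the 4 found in all SMC3 libraries 2 overlapped both controls, as did 26.2% of 7068 such regions genome-wide. One of the 2 was the control-region site, where the controls had separate peaks that did not overlap, at percentiles of 45.2 and 12.9.

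The region in all 6 ATAC libraries, at 149735670 to 149738272, lay inside the cohesin site 26.9 kb below H19. Its best peak stood at percentiles of 95.3 and 98.3 in control, 89.8 and 97.3 with siDRR, and 86.5 and 79.8 with siSmc3. It was the highest-ranked accessible region of the locus in each of the 6 lists. The region in 5 libraries, at 149718354 to 149719986, stood at 74.2 and 80.0, 71.9 and 80.7, and 76.4 in siSmc3 replicate 2. It too coincided with a cohesin site, and siSmc3 replicate 1 lacked it.

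The H19 promoter region, at 149763359 to 149764834 over the start of the gene, had peaks in both control libraries, at percentiles of 45.3 and 66.0. It also had them in both siDRR libraries, at 62.1 and 56.9, and in neither siSmc3 library. The nearest siSmc3 peak was 14.3 kb away in replicate 1 and 1124 bp away in replicate 2. No SMC3 peak covered this region.

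At the control region, ATAC peaks on the H19 side, at 149765958 to 149766937, were called in the second replicate of each group, at 12.9 in control, 55.7 with siDRR and 66.0 with siSmc3. Control replicate 1 instead had a peak on the Igf2 side, at 149767327 to 149768088 (45.2), and the other first replicates had none. Calls there thus followed the replicate number, and in each ATAC group the second replicate also had the longer list. Inside Igf2, control replicate 1 had a peak at 149841852 to 149842285 (42.1) and control replicate 2 one at 149842577 to 149842885 (32.9), 291 bp apart. Another region, at 149844303 to 149844855, was called in control replicate 2 (31.4) and siDRR replicate 2 (43.8). All accessible peaks of Igf2 were thus below the middle of their lists, and 3 libraries had none, siDRR replicate 1 and both of siSmc3.

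**Figure D4:**
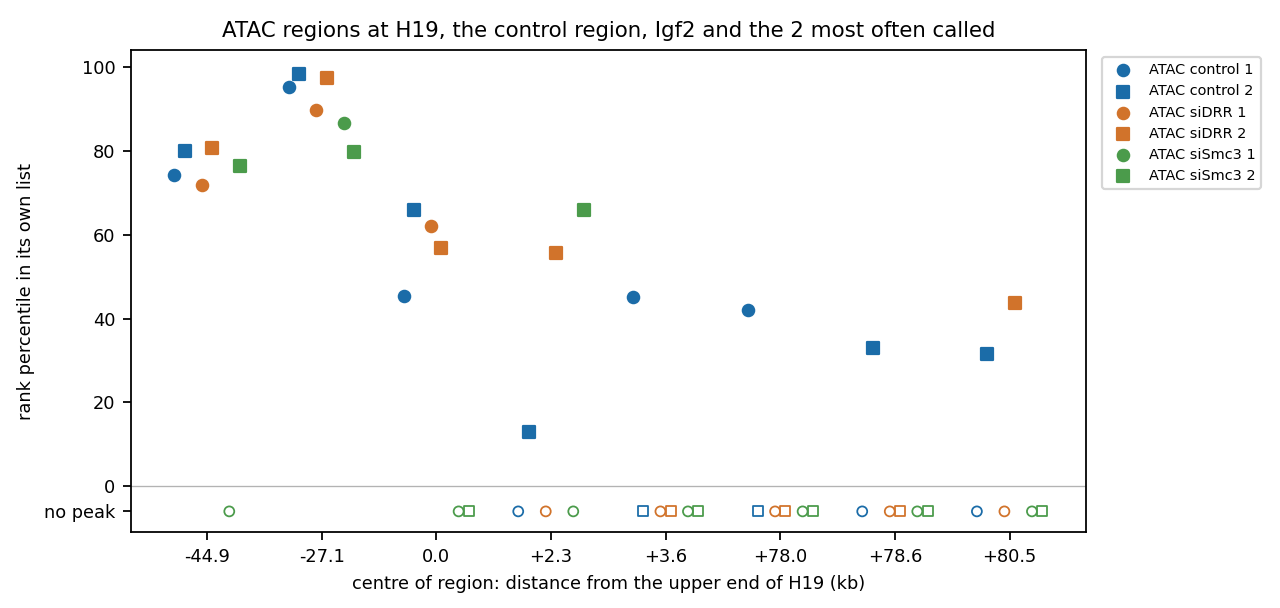
Rank percentile of the best ATAC peak in its own list (vertical axis) at 8 regions, by the distance of their centre from the upper end of H19 in kb; circles are replicate 1, squares replicate 2, and open symbols a list with no peak. At the start of H19 the control and siDRR libraries sit between 45.3 and 66.0 and both siSmc3 libraries have no peak.

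Under siDRR no accessible region of the locus was lost or gained, against 1.31% and 1.44% of 171839 regions. Control libraries had 12 ± 0 peaks in the window and siDRR libraries 9 ± 4.24 (SD, n = 2 each; p = 1, two-sided exact permutation test). The difference of -3 peaks turned to 1.5 with the better-scoring 50% of each list. The 3 regions of all 4 libraries, at 44.9 and 27.1 kb below H19 and at its start, had overlapping percentiles in the 2 groups. Genome-wide 20.0% of 27933 regions stood higher in both siDRR lists and 9.74% lower.

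Under siSmc3 the region at the start of H19 was the 1 lost region of the locus, and none was gained. Genome-wide 1.71% of 187972 regions were lost and 1.93% gained. The locus had 4 regions in both controls, and of 38630 such regions genome-wide 8.31% were lost. Of the 4388 with a mean control percentile of 50 to 60, as here, 504 (11.5%) were lost. In each replicate number alone the loss at H19 follows from the rule for a lost region, so this adds no support. With lists of 58137 peaks the loss was also called. That cut could not undo it, since both control peaks ranked within this length and cutting adds no siSmc3 peak. With the better-scoring 50% the loss was not called, since the peak of control replicate 1 stood at 45.3.

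The 1 region called in all 4 libraries, 27.1 kb below H19, stood lower in both siSmc3 lists than in both controls, by a difference of -13.6 points (96.8 and 83.2; p = 0.333, exact permutation test). That p follows from groups that do not overlap. The difference was -18.5 points without replicate 1 and -8.79 without replicate 2. Genome-wide 12.6% of 25618 regions stood lower and 22.5% higher, and 10.6% differed by as much downward. Control libraries had 12 ± 0 peaks in the window and siSmc3 libraries 8.5 ± 0.707 (SD, n = 2 each; p = 0.333, two-sided exact permutation test). Both knockdowns were set against the same controls.

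ChIRP for the DRR RNA gave 8 regions in the window, and none was found by both probe pools. Genome-wide 1.18% of 97348 regions were called in at least 1 replicate of each pool. Replicate 1 of pool 1, with 3765 summits, had none here, and replicate 2, with 68233, had 5 at percentiles of 7.20 to 35.5. One of these, at 149766055, lay inside the cohesin site of the control region, at 35.5.

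Both replicates of pool 2 called 2 of the 8 regions, and pool 1 neither; genome-wide this was so for 12.3% of regions. At 149744999 to 149745528, 18.8 kb below the start of H19, the summits were at 149745278 and 149745249, with percentiles of 95.1 and 95.3. This region overlapped no SMC3 peak and no ATAC peak, and the nearest accessible region of 2 or more libraries was 2.21 kb away. That neighbour, at 149747741 to 149749251, is outside the rule for named regions and was picked for its place; it stood at 38.5 and 63.0 in control, 70.5 in siDRR replicate 2 and 42.6 in siSmc3 replicate 1. The other region of pool 2, at 149781856 to 149782390 between the genes, stood at 9.17 and 24.4. Whether LacZ probes gave summits at these places was not tested.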

How the data were processed

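The authors deposited 1 peak list per library. Per the submitters' processing notes the build is mm9, and the tools include MACS 1.4.2, MACS2, Bowtie2 2.2.4, Bowtie 1.1.1 and cutadapt 1.12, with no role for each tool; whether ATAC reads were shifted is not given there. The last column holds a deposited score of unstated scale, from 50 upward for SMC3 and from 30 for ATAC, used only to rank peaks inside a list. Read depth is unknown, and list length can follow depth.

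Starts were made 1-based, chromosome M and unplaced contigs were dropped, and each ChIRP summit was extended 250 bp both ways. Peaks of the libraries compared were merged where they overlapped by at least 1 bp (Python 3.11.15, pandas 2.3.3), and the best peak gave a region's percentile. On simulated lists of 5000 regions per comparison, all 200 planted losses and 200 planted gains were recovered. The simulated regions lay far apart and the peaks of a region overlapped, so split or neighbouring peaks were not tested. Between any 2 lists at most 1.41% of intervals were identical. The labels name no separate cultures, so replicate spread may be technical.

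Named regions were SMC3 regions of at least 3 libraries; ATAC regions of at least 5, inside a gene, or between the genes within 10 kb of H19; lost or gained regions; and ChIRP regions of at least 2 libraries. The locus and these rules were chosen with earlier results of these data known. Alternatives were equal list lengths, the better-scoring 50%, an overlap of 200 bp, summits extended by 500 bp, and leaving out each replicate number. Merging peaks up to 1000 bp apart, and all alternatives for rank percentiles, were added after seeing the data.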

Additional observations from a re-analysis of the deposited data

How the results depend on the processing

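The difference in SMC3 peaks of the window between myotubes and myoblasts turned from -0.5 to 2 with lists of equal length and to 0.132 per 1000 listed peaks; between siDRR and myotubes it turned from -1.5 to 0.0291 per 1000 listed peaks. The ATAC difference between siDRR and control turned from -3 to 1.5 with the better-scoring 50%. Gained SMC3 regions on differentiation went from 0 to 1 with lists of equal length and to 1 with the better-scoring 50%. No genome-wide share is given for these shortened lists. Lost ATAC regions under siSmc3 went from 1 to 0 with the better-scoring 50%, and to 2 with peaks up to 1000 bp apart merged, when 1 was also gained; under siDRR 1 was then lost. The causes were not tested. Leaving out each replicate number in turn gave 1 to 1 lost and 0 to 1 gained SMC3 regions on differentiation and 0 to 3 lost under siDRR. For ATAC it gave 4 to 8 lost and 2 to 4 gained under siDRR, and 7 to 8 lost and 3 to 5 gained under siSmc3. With a single list per group, any region called in only 1 of the 2 lists counts as lost or gained. These counts therefore cannot be set against the genome-wide shares given above, and no share is given for this setting. The count of ChIRP regions of both pools was 0 under its 5 alternatives.

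In the paired test (replicate block) the differences of -0.5, -1.5 and -3 in peak number had p = 1 for both SMC3 comparisons and for siDRR in ATAC, and the difference of -3.5 for siSmc3 had p = 0.5 (exact sign-flip test, smallest possible 0.5). The block changed no call. The libraries share only a number: over regions, the deviations of same-numbered libraries correlated at 0.0791 and 0.0364 for SMC3 and 0.117 and 0.152 for ATAC. With lists of equal length, the myotube minus myoblast difference in rank percentile was 46.0 points at 26.9 kb below H19 and 30.2 at 40.1 kb. It was -3.83 at the control region, and the difference for siSmc3 at 27.1 kb was -23.4. The farther site beyond Igf2, and the site at 40.1 kb under siDRR, were not in all 4 shortened lists. Genome-wide differences were not computed for shortened lists. The cut shortens the myoblast lists more than the myotube lists, which lowers myoblast percentiles, so these values cannot be set against the median of the full lists.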

Other observations

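A cluster of ATAC peaks beyond Igf2, picked out after the values were seen, was found in both siSmc3 libraries and in no control or siDRR library. In replicate 1 the peaks lay at 149860201 to 149860573 and 149862231 to 149862592, at rank percentiles of 60.0 and 32.8, and in replicate 2 at 149861621 to 149862027, at 37.7. They lay around the cohesin site at 149861147 to 149862256. No pair overlapped, so the rule of 1 bp counted no gain; with peaks up to 1000 bp apart merged, 149861621 to 149862592 counted as gained, as did 2.58% of 162452 regions genome-wide. Under the same merging the Igf2 peaks of the 2 controls joined into 149841852 to 149842885, which counted as lost under both knockdowns; genome-wide 1.54% of 150056 regions were lost under siDRR and 1.81% of 162452 under siSmc3.

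Between the genes, myotube replicate 1 was the one SMC3 library with a peak at 149785648 to 149787584 (percentile 9.86), and an ATAC peak of control replicate 1 lay inside it at 76.9. With siDRR, replicate 2 had an ATAC peak there at 14.2, and the other 4 ATAC libraries had none.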
